A study of Homo sapiens with 10 samples.

Results

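Of 7 ChIRP-seq peaks in a window at band 9p21 of chromosome 9, 6 lay on the ANRIL gene itself. The spans of its 3 neighbour genes held none. ANRIL is the long non-coding RNA made from CDKN2B-AS1, and the neighbours described with it are MTAP, CDKN2A and CDKN2B. The peaks were chosen by position alone, as all those of the deposited hg19 list whose midpoint fell from 21000000 to 23000000 on chromosome 9. This gave 7 of the 3227 intervals in the list, which are called peaks here. The list has 3209 peak names, as 18 intervals repeat a name, none of them in the window. Of the 7 peaks, 6 had their midpoint on the CDKN2B-AS1 span and 1 lay 495 kb beyond its end.

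The material was HEK293, an established human embryonic kidney line that carries adenoviral early genes. In ChIRP, biotinylated oligos complementary to an RNA retrieve it from sheared chromatin, and the DNA held with it is read. Such oligos can also match DNA of the gene that the RNA is made from. Whether this gave any of the peaks on CDKN2B-AS1 was not tested, as the oligo sequences were not at hand. The series has 10 samples, all from HEK293 cells with no other treatment named: 4 with ANRIL oligos (an even-numbered and an odd-numbered pool for each of 2 replicates), 4 with pools against LacZ, a bacterial sequence that serves as the negative control, and 2 of input chromatin. The labels give 45 M reads of 43 bp for each sample, do not state whether the replicates were separate cultures, and the list holds 1 set of values per peak for ANRIL against LacZ, after intersection of the replicates. The list therefore gives no spread between replicates, no separate level in LacZ or input and no view of each oligo pool on its own, so no value below carries an SD or a test.

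CDKN2B-AS1 is transcribed away from the start of CDKN2A and runs antisense across the whole of CDKN2B. CDKN2A encodes the cyclin-dependent kinase inhibitor p16INK4a and, from another start, ARF, which stabilises p53, while CDKN2B encodes p15INK4b, another inhibitor of the same kinases. MTAP encodes methylthioadenosine phosphorylase, an enzyme of methionine salvage. ANRIL is known for its link to Polycomb repression of CDKN2A and CDKN2B, and variants within and near it are associated with coronary artery disease.

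The hg19 spans used were 21802636 to 21867081 for MTAP, 21967751 to 21994490 for CDKN2A, 22002902 to 22009312 for CDKN2B and 21994790 to 22121096 for CDKN2B-AS1. MTAP and CDKN2B-AS1 are on the plus strand, and CDKN2A and CDKN2B are on the minus strand. On these spans the start of CDKN2A lies 300 bp before the start of CDKN2B-AS1, so the pair is arranged head to head. The first ANRIL peak fell at this shared end, from 90 bp before the CDKN2B-AS1 start to 288 bp after it.

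The sequence around the CDKN2B-AS1 start is shown because a peak meets that start site, and windows of CDKN2B and CDKN2A are shown beside it. The sequences are the promoter windows of RefSeq on GRCh38.p14, running from 250 bases before to 50 after each start, 5′ to 3′ on the gene's own strand. All 4 genes had such a window, and CDKN2A had 1 for each of its 2 starts. For CDKN2B-AS1 (chr9:21994541-21994840, plus strand) the capitals mark the 140 bases that the first peak covers when counted from the gene start, provided that hg19 and GRCh38 place this start on the same base, which was not tested. For CDKN2B (chr9:22009256-22009555, minus strand), printed as the neighbour start without a peak, capitals mark the GC box GGGCGG on either strand. The outer start of CDKN2A (chr9:21995275-21995574, minus strand) holds no GC box and has no capitals. It lies 533 bp past the CDKN2B-AS1 start, whereas the CDKN2A start of the hg19 spans lies 300 bp before it. Counted from the CDKN2B-AS1 start the peak ends at 288 bp, short of this outer window.
CDKN2B-AS1: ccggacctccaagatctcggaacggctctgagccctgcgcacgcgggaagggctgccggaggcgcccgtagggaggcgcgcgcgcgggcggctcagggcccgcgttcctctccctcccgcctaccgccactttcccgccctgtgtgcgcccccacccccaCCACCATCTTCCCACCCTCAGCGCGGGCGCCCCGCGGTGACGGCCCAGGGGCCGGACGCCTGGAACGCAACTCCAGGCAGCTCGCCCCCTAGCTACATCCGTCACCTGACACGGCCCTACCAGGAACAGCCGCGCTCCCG
CDKN2B: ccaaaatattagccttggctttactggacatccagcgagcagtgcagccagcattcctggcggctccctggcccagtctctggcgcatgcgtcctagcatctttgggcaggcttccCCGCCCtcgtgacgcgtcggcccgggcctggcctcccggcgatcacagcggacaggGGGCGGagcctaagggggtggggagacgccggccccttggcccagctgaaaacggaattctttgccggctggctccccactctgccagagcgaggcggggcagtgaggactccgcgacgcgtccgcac
CDKN2A: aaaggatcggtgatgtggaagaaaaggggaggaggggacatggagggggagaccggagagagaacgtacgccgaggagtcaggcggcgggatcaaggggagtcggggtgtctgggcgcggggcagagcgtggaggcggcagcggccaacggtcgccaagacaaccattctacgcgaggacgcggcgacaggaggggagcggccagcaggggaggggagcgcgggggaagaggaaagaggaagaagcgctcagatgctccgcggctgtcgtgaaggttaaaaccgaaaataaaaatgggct

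The CDKN2B-AS1 window was rich in CpG, with 36 CpG dinucleotides and a GC share of 74.0%, against medians of 14 and 58.7% over 35116 RefSeq windows of the same length. Of those windows, 87.3% held fewer CpG. Within the 140 bases covered by the peak there were 15 of the 36. The CDKN2B window held 25 CpG, and the CDKN2A windows held 28 at the outer start and 26 at the inner one. The MTAP window, with 15, was close to the median of all windows.

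GC boxes were present in the windows of CDKN2B-AS1, CDKN2B, MTAP and the inner start of CDKN2A, with 2 matches each, a motif that 45.0% of all windows held. In CDKN2B-AS1 none of the matches lay in the 140 bases under the peak. The TATA motif TATAAA occurred only in the MTAP window, with 1 match (11.5% of all windows hold it). The E2F motif TTTNGCGC (1.79% of all windows) and a core CTCF motif (0.0655%) matched none of the 5 windows. All motifs were searched on both strands, and matches of the GC box did not overlap one another or the TATA match.

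In order along CDKN2B-AS1, the 6 peaks marked its start, a close pair in the first part of the gene, its middle, its later part and its end. The values that follow are the authors' own for each peak. Widths are those of the deposited intervals, which the intersection may have cut, in which case fold and score belong to a longer call. Fold is the ANRIL signal divided by the level expected at that place, and score is 10 times −log10 of the q-value, rounded down, so that a score of 20 corresponds to a q of 0.01.

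The peak at the start (21994700 to 21995078, 379 bp) reached a fold of 4.48 with a score of 37 (q = 0.000174). It had the highest fold and the highest score of the 7 peaks. Its fold was above that of 95.7% of the list and its score above that of 92.7%, and 7 other peaks of chromosome 9 scored higher. Its midpoint was 99 bp inside the gene.

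The close pair lay 34.7 and 38.0 kb from the gene start, at 27.4% and 30.1% of its length. The former (22029184 to 22029708, 525 bp) stood at a fold of 3.61, with a score of 19 (q = 0.0102). The latter (22032599 to 22033026, 428 bp) stood at 3.66, with a score of 23 (q = 0.00439). They were separated by 2.89 kb and were near each other in fold, and both were past the CDKN2B span, upstream of the start of that minus-strand gene.

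The peak in the middle of the gene (22058341 to 22058643) was 63.7 kb from its start, at 50.4% of its length. It was the narrowest of the 7, at 303 bp, and yet had the second highest fold, 4.36, with a score of 35 (q = 0.000309). The peak at 102 kb (22096243 to 22096983) was the widest, at 741 bp, and had the lowest score, 18 (fold 3.55, q = 0.0133). Only 4 peaks of chromosome 9 were wider than it. By deposited width, the narrowest interval on CDKN2B-AS1 was thus among the strongest and the widest the weakest by score. How far the intersection set these widths was not tested.

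The last peak (22120284 to 22120804, 521 bp) ended 292 bp before the end of the gene, at 99.6% of its length. It combined the lowest fold of the 7 peaks, 3.47, with the third highest score, 33 (q = 0.000453). Peaks were thus present at both ends of the CDKN2B-AS1 span as well as inside it. The stretches between neighbouring peaks were 34.1, 2.89, 25.3, 37.6 and 23.3 kb, and together the 6 peaks covered 2.29% of the gene.

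**Figure D1:**
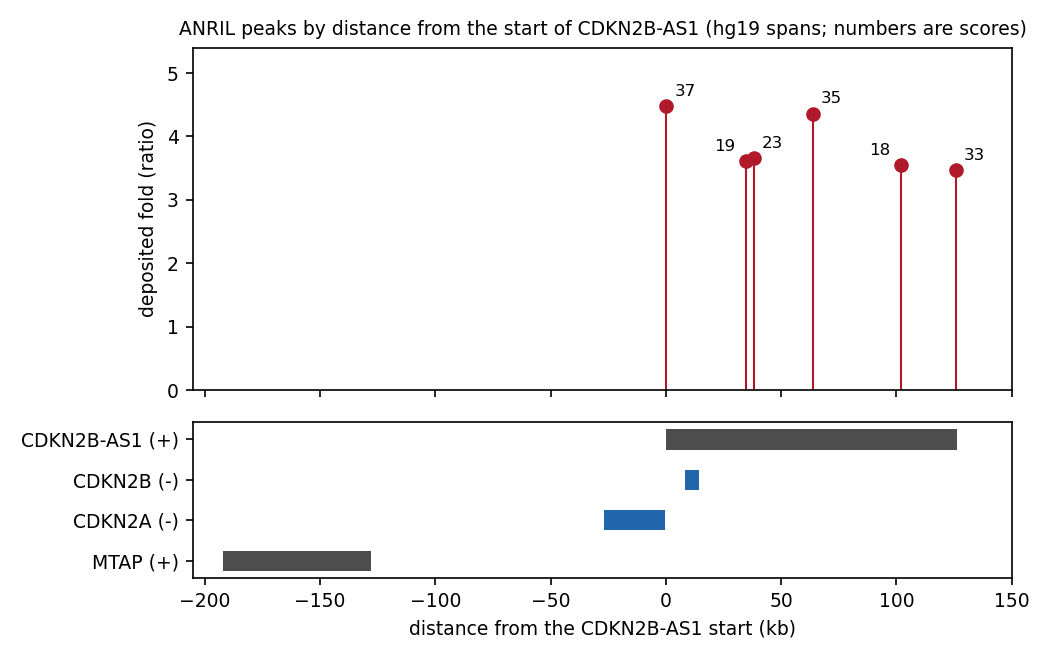
Deposited fold of the 6 ANRIL peaks (top, points on stems, with the score beside each) by distance in kb from the CDKN2B-AS1 start, above the hg19 spans of the 4 genes (bottom, grey for the plus strand and blue for the minus strand). All 6 peaks stand on CDKN2B-AS1, with the highest folds, 4.48 and 4.36, at its start and its middle, and no peak stands over MTAP, CDKN2A or CDKN2B.

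The last peak stood apart from peaks of like fold. In the whole list 691 peaks, the last peak included, had a fold within 0.1 of it. Their median score was 19, and 98.6% of them scored below the last peak. On chromosome 9 there were 35 other such peaks, whose scores ran from 16 to 26 with a median of 18. Its −log10 p was 6.97, against a median of 4.98 for the 691. The other strong peaks of the gene did not differ in this way. The start peak's score of 37 equalled the median of 37 for the 79 peaks of like fold, and the middle peak's 35 equalled the median of 35 for 111. The peaks scoring 19 and 18 lay low among those of like fold, above 5.69% of 527 and 5.76% of 573. Each of these counts over the list includes the peak that was compared. Both fold and score come from the same calling, and no read counts were at hand, so what sets the last peak apart was not tested.

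**Figure D2:**
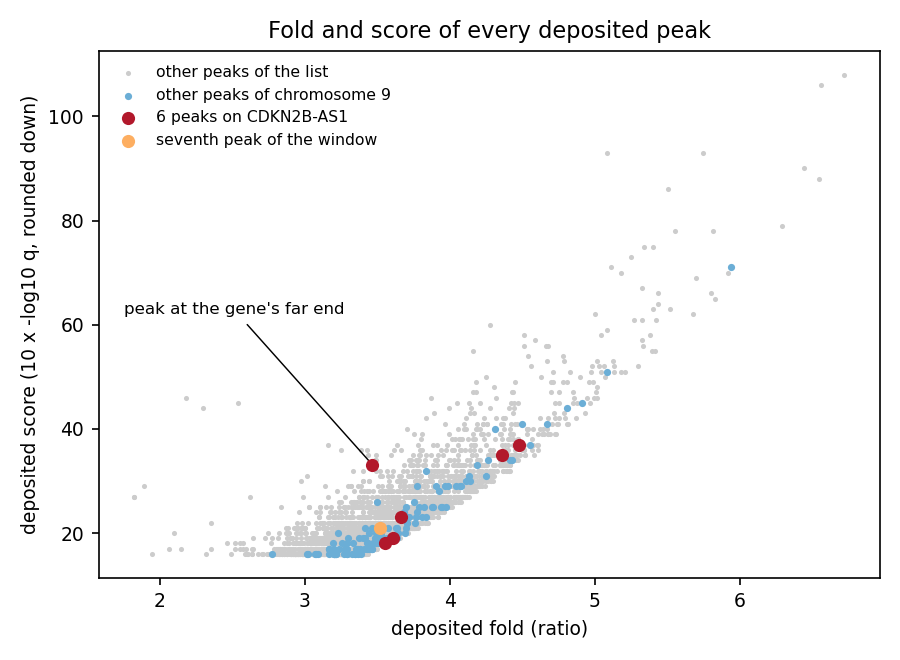
Deposited score (10 times −log10 q, rounded down) against deposited fold for every peak of the list (grey), with the other peaks of chromosome 9 in blue, the 6 peaks on CDKN2B-AS1 in red and the seventh peak of the window in orange. The peak at the far end of the gene, with a fold of 3.47 and a score of 33, lies at the upper edge of the cloud, while the other 5 lie within the cloud or along its lower side.

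The seventh peak of the window (22616312 to 22616677, 366 bp) was not on any of the 4 genes. It lay 622 kb from the CDKN2B-AS1 start, with a fold of 3.52 and a score of 21 (q = 0.00658). Its score was above that of 48.6% of the list and its fold above that of 54.8%, so it lay near the middle of the list. In the RefSeq gene order on GRCh38, the protein-coding genes that follow CDKN2B are DMRTA1, which encodes a DM-domain transcription factor, and ELAVL2, which encodes a neuronal RNA-binding protein. Their hg19 spans were not used here, and the peak was given no gene.

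The neighbour genes held no peak, although they differ widely in how near one came. CDKN2A, with a span of 26.7 kb, had the start peak 210 bp upstream of the start of that hg19 span and nothing inside. CDKN2B, with a span of 6.41 kb that lies wholly within CDKN2B-AS1, had its nearest peak 7.82 kb beyond its 3′ end. On the other side, the first of the close pair lay 19.9 kb upstream of the CDKN2B start. MTAP, with a span of 64.4 kb, had its nearest peak 128 kb past its end. No peak of the list lay in the 1742 kb before the CDKN2B-AS1 start peak, so a longer model of MTAP ending before that peak would hold none either.

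Whether the start peak is counted to CDKN2A depends on the gene model. With the CDKN2A span extended by 1 kb on each side it held 1 peak in place of 0. In the RefSeq windows on GRCh38.p14 the outer CDKN2A start, at 21995324, lies 533 bp past the CDKN2B-AS1 start, at 21994791. Counted from the CDKN2B-AS1 start the peak ends at 288 bp, so on that longer model it would lie inside both genes. The inner CDKN2A start, at 21974857 on the same build, lies well before the CDKN2B-AS1 start. The peak is thus near the outer end of CDKN2A and not near this inner start. Which start gives p16INK4a and which gives ARF was not assigned here. Exons and introns of hg19 were not used here, so none of the 6 peaks was placed on an exon.

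By score, 4 of the 6 CDKN2B-AS1 peaks reached 20, that is a q of 0.01 or less, where 57.5% of the list did. A score of 30, that is a q of 0.001 or less, was reached by 3 of the 6 (exact Clopper-Pearson 95% interval 11.8 to 88.2%), where 17.4% of the list and 17 of the 124 peaks of chromosome 9 outside the window did (13.7%). The interval covers the counting of peaks only. The share at 20 was near that of the list. The share at 30 rests on the peaks at the start, the middle and the end, and its interval includes the list's share. The median width of the 6 was 474 bp, against 328 bp for the 124 and 346 bp for the list.

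Peaks on CDKN2B-AS1 were closer together than elsewhere on chromosome 9. The midpoints of neighbouring peaks on the gene were 3.37 to 38.1 kb apart, with a median of 25.7 kb, against a median of 575 kb over the chromosome. The 126 kb of the span held 47.5 peaks per Mb, and the rest of the chromosome between its first and last peak held 0.896 per Mb, or 1.18 when a stretch of 33.1 Mb without any peak is left out. Stretches as long as the span were laid from each of the other 125 peaks of the chromosome. Of these, 111 held that peak alone and 14 held 2, and none held more.

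Numbers in the peak names give a view of calls that were not kept. They never fell along the list, chromosome 9 included. Taking them as consecutive when given out, each missing number stands for a call between its kept neighbours that the intersection, the score filter or the blacklist removed. The 6 peaks on CDKN2B-AS1 had numbers from 44691 to 44701. On that basis 11 peaks had been called there and 6 were kept (54.5%). The stretch begins and ends on a kept peak by definition, and of the 9 numbers between these ends 4 were kept. Between the 6, the missing numbers were 1, 0, 2, 1 and 1.

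Over chromosome 9, 131 of 2839 numbers were kept (4.61%), and over the list 3209 of 56458 (5.68%). Among runs of 6 consecutive kept peaks, the run on CDKN2B-AS1 stood at 54.5%, while the 115 runs of chromosome 9 without a peak of the gene reached at most 21.4%, with a median of 5.50%. In the whole list 4 of 3093 such runs, which overlap one another, reached 54.5% or more. They were this one, 1 on chromosome 19 and 2 on chromosome 21. The run on the gene was singled out with its values known, and the ends of all runs compared are kept peaks, so these shares are a description only.

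**Figure D3:**
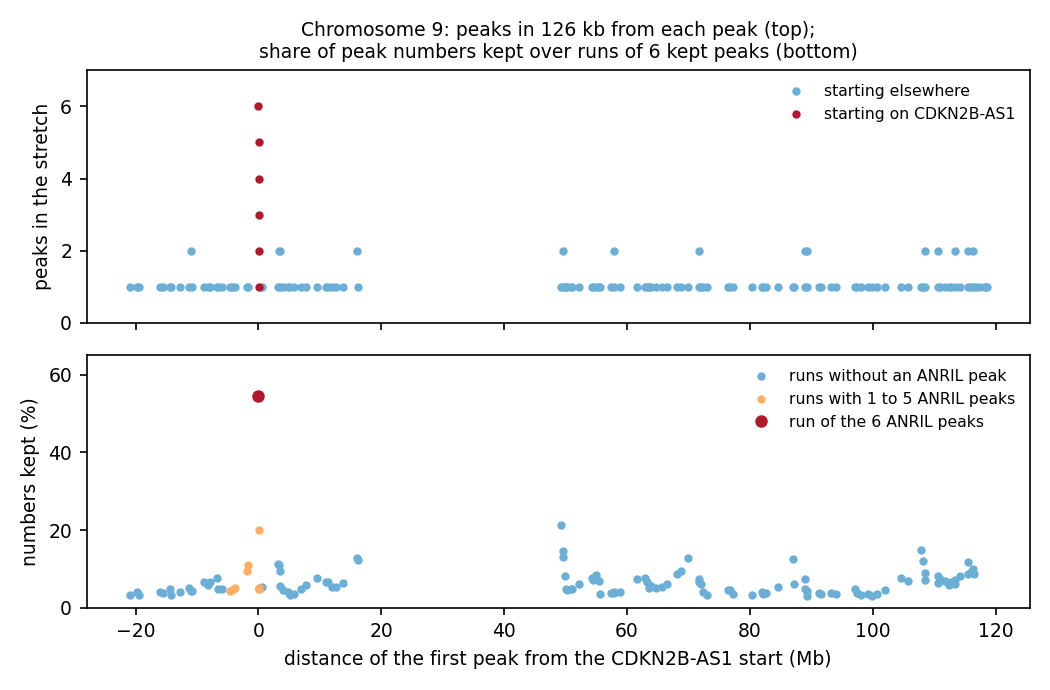
Peaks of chromosome 9 by distance in Mb from the CDKN2B-AS1 start. The top panel gives the peaks counted in the 126 kb that start at each peak and the bottom panel the percentage of peak numbers kept over each run of 6 kept peaks, plotted at its first peak. CDKN2B-AS1 reaches 6 peaks where the rest of the chromosome reaches 2, and 54.5% where runs without its peaks reach 21.4%.

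Peak numbers per Mb, which stand for calls before filtering, were higher on the gene, but kept peaks are part of that count. Between the first and the last CDKN2B-AS1 peak, both left out, 9 numbers in 125 kb gave 71.9 per Mb. The stretches between the kept peaks around the gene had 25.8 per Mb in the 1742 kb before it (45 numbers), 40.4 in the 496 kb after it (20 numbers) and 33.9 in the 2599 kb beyond the seventh peak (88 numbers). Chromosome 9 as a whole had 20.3 per Mb, or 26.4 without the 33.1 Mb that held no kept peak and 25 numbers. The value on the gene rests on few calls, and its 9 numbers include 4 kept peaks and 5 that were not kept. The stretches around it are gaps between kept peaks. By construction they hold no kept peak, and they say nothing of the share kept there. The 71.9 per Mb is therefore not a like comparison with the gaps. The 5 numbers not kept lay in 125 kb, and the gap after the gene held 20 in 496 kb. Which of the filters removed the calls that were not kept was not tested.

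**Figure D4:**
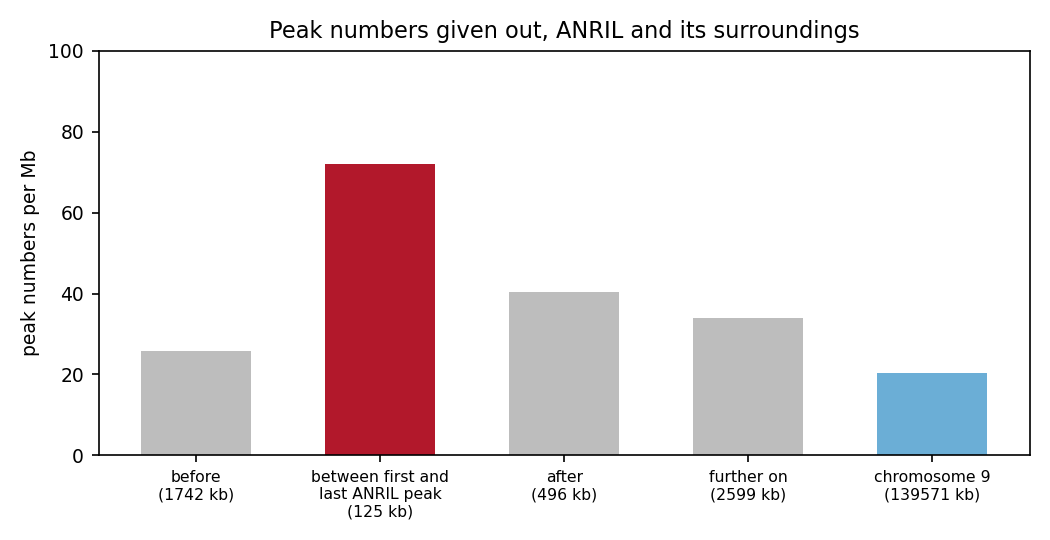
Peak numbers given out per Mb (bars) in the gap before the gene, between its first and last peak (red, both left out), in the 2 gaps after it (grey) and over chromosome 9 from its first to its last peak (blue), with the length of each stretch in kb. The gene stands at 71.9 per Mb, and the 3 gaps around it at 25.8 to 40.4. The count on the gene includes 4 kept peaks, while the gaps hold none by construction.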

How the data were processed

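The members, gene spans and comparisons were chosen with earlier results of these data known. Per the submitters' processing notes, Bowtie2, MACS2, bedtools, deepTools and hg19 were used; their versions and parameters are not stated there. Per the labels, the authors joined even and odd samples, and the file's title names an intersection of 2 replicates, a score filter named 15 and blacklisted regions. The deposited score equalled 10 times the deposited −log10 q, rounded down, in all 3227 intervals, and the lowest was 16. The deposited fold (a ratio) and the deposited −log10 p were recognised from MACS2's column order. The replicate they come from is not given in the sources used here. Read counts per peak were not used, so depth is unknown.

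Positions are 1-based hg19. A peak was placed by its midpoint. Every peak in the window was named, with the genes given by the spans or by neighbouring order. Promoters came from RefSeq (GRCh38.p14), and no position was converted between builds. Alternatives covered stricter scores, other overlaps, wider spans, merged peaks and other stretches of peak numbers. Placing, merging and motif counting were tested on simulated data. Oligo sequences and hg19 exons were not used. Python 3.11.15, pandas 2.3.3, scipy 1.17.1 and matplotlib 3.10.9 were used.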

Additional observations from a re-analysis of the deposited data

How the results depend on the processing

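Of 26 values under alternatives, 20 stayed within the limits set for them (1.5 times for counts, the range of the 7 peaks for medians, the exact interval for shares) and 6 moved. The medians could not move under this limit, since each alternative took a part of the same 7 peaks. The median score of the 7 peaks was 23. It was 28 on CDKN2B-AS1 and 33 among those with a score of 20 or more. With scores of 30 or more, by construction, 3 peaks were left in the window and 3 on CDKN2B-AS1. The CDKN2A span held 1 peak when extended by 1 kb and 1 when extended by 5 kb. The share of peak numbers kept, 21.9% from the first to the last peak of the window, was 4.24% between the next kept peaks outside it, near the 4.61% of the chromosome, and 54.5% on CDKN2B-AS1 alone, a stretch chosen after seeing the data. It thus depends on the stretch. The counts of 0 for CDKN2B and MTAP held under overlap by 1 base and extension by 1 and 5 kb. Leaving out a replicate was not possible with 1 intersected list. No paired analysis was possible because the file gives 1 value per peak and does not tie it to a replicate.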
